A study of Mus musculus with 58 samples.

Results

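Lithium was compared with vehicle in the prefrontal cortex of male mice, in 19 of the 58 libraries of a study of Arid1b heterozygous mice. The members are every library labelled male that received lithium (10) or vehicle (9), with genotype as a factor. They form 4 groups: heterozygous (HT) mice with lithium (5 libraries), HT mice with vehicle (5), wild-type (WT) mice with lithium (5) and WT mice with vehicle (4). All were of the C57BL/6N strain. Pups took the drug or vehicle with their mothers' milk between postnatal days 3 and 24, and the cortex was dissected at day 25. Treatment was therefore shared by whole litters, while the sources used here do not give the litter, the dose, a sequencing batch or the kind of Arid1b allele. Whether libraries are separate animals is not stated in the labels; p-values therefore measure the spread between these libraries, which may be technical. The question was which transcripts differed with lithium in males, and whether the difference was alike in the 2 genotypes. A gene was tested if its mean over all 58 libraries was at least 10 normalised reads, which kept 16632 of 18088 genes.

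Lithium is a small cation used as a mood stabilizer. It inhibits glycogen synthase kinase 3, the kinase that marks beta-catenin for breakdown in Wnt signalling, and it inhibits the inositol monophosphatases that recycle inositol for phosphoinositide signalling. Sodium channels and transporters let it into cells. The product of Arid1b is part of the BAF complex, which moves nucleosomes. Neurons that fire transcribe immediate early genes such as Fos and Arc, whose promoters are bound by CREB and serum response factor. Genes for the proteins of the cytosolic ribosome start transcription within a run of pyrimidines (C or T), and the same run at the 5' end of their messenger RNA is read by the translation control of the mTOR pathway.

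Several promoters are printed here because the ribosomal protein and immediate early genes are the lists with the largest shares of members lower with lithium at an unadjusted p under 0.05. They come from RefSeq on GRCm38.p6, run 5' to 3' on the gene's strand, and span 70 bases before to 30 bases from the annotated start. In the first 3, the capitals mark the longest run of C and T that reaches within 5 bases of the start. Rpl22l1, Rpl31 and Rpl38 encode proteins of the large ribosomal subunit or, for Rpl22l1, a close relative of one. The windows are chr3:28805438-28805537, chr1:39367781-39367880 and chr11:114668510-114668609, all on the plus strand.
Rpl22l1: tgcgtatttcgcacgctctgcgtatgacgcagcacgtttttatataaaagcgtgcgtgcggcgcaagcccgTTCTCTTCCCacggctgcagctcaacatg
Rpl31: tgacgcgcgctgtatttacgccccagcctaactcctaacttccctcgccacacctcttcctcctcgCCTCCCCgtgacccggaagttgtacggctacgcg
Rpl38: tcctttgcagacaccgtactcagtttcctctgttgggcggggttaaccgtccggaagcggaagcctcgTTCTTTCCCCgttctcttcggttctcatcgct

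The run was 10 bases long in Rpl22l1 and Rpl38 and 7 in Rpl31. A promoter was found for 58 of the 79 ribosomal protein genes tested, and 23 of these (39.7%) had a run of at least 8 bases. The share was 12.2% of the 12077 tested genes with a promoter, and 2962 of all 27025 genes in the promoter table had such a run. Next come 2 promoters of immediate early genes, Fos (chr12:85473820-85473919, plus strand) and Ccn1 (chr3:145649956-145650055, minus strand). The capitals mark the letters TGACGT, the core of the element bound by CREB, or its reverse complement.
Fos: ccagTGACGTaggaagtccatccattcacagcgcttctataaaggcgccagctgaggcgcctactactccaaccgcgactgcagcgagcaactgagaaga
Ccn1: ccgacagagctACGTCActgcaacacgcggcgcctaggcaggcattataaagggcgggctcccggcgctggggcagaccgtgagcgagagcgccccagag

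Of the 30 immediate early and activity-induced genes tested, 23 had a promoter in the table. TGACGT stood on either strand within 250 bases before to 50 bases after the start in 11 of them (47.8%). The same letters stood in 1509 (12.5%) of the tested genes with a promoter and in 8.37% of all genes in the table. A match describes the letters of the window and says nothing about binding.

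The labels were checked first. Arid1b (ENSMUSG00000069729) had 1935 to 2266 normalised reads in the 10 HT libraries and 2410 to 2618 in the 9 WT libraries, with no overlap. The log2 fold change of HT against WT was -0.30 (limma, adjusted p = 0.00037), where 12 genes passed for genotype (0.0722%), and its log2 fold change with lithium was 0.03 (SE 0.034, adjusted p = 0.87). Ddx3y, a Y-linked gene, had 963 to 1687 normalised reads and Xist, the RNA that silences an X chromosome in females, 3.71 to 110 in these 19 libraries. Libraries held 24.6 to 35.3 M reads with lithium and 24.1 to 31.6 M with vehicle. The cortical marker Slc17a7, the vesicular glutamate transporter of cortical neurons, had 42758 to 51828 normalised reads, and Tbr1 2278 to 3856, Fezf2 349 to 1066 and Cux2 2939 to 3989. These 4 cortical markers were thus present in every library. Cdhr1, a marker of the olfactory bulb, ranged from 146 to 4559, so transcripts of that neighbouring tissue were present in varying amounts.

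HT lithium males 4 and 5 stood apart from the other lithium males. In these libraries gene levels rose with the GC content of the transcript, by 0.194 and 0.203 on the log2 scale per 10 percentage points of GC, relative to the mean of 38 male and female libraries. The other 8 lithium males lay between -0.175 and -0.08 and the 9 vehicle males between -0.159 and 0.005. The 10 female lithium libraries lay between 0.164 and 0.26. HT lithium male 5 also held choroid plexus transcripts, with 9013 normalised reads of Ttr, the transthyretin gene of that tissue, against 3.68 to 79.1 in the other 18 libraries. Results are given with all 10 lithium libraries and again without these 2, a choice made after seeing the data.

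**Figure D1:**
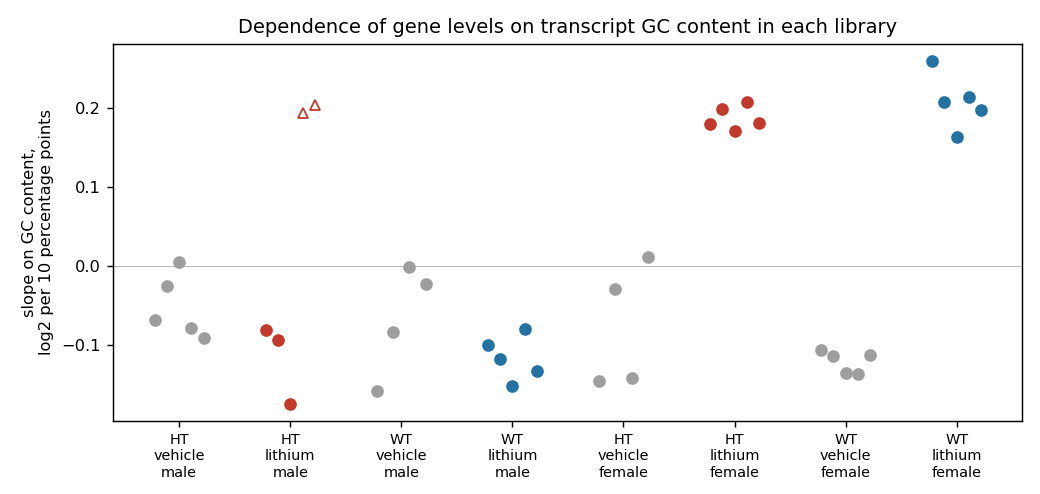
Slope of gene level on transcript GC content (vertical axis, log2 units per 10 percentage points) in each of the 38 lithium and vehicle libraries of both sexes, by group; each point is a library. The open triangles are HT lithium males 4 and 5, at 0.194 and 0.203, which lie among the female lithium libraries and above every other male library.

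With all 19 libraries, 5 genes passed the test between lithium and vehicle, averaged over both genotypes (limma on log2(value + 1), adjusted p under 0.05). This is 0.0301% of the genes tested. Lbp and Stra6 rose (0.012% of genes rose), and Rpl17, Arl4d and Rpl22l1 fell (0.018% fell). At an unadjusted p under 0.05 there were 1423 genes (8.56%), 689 higher (4.14%) and 734 lower (4.41%). Each of the 5 genes had an adjusted p of 0.049, close to the threshold, and none passed edgeR, where 1490 genes had an unadjusted p under 0.05, while DESeq2 called 105 genes. Without HT lithium males 4 and 5, limma called 85 genes (0.511%), 23 higher (0.138%) and 62 lower (0.373%), and 13% of genes had an unadjusted p under 0.05. All 5 genes were among the 85, and edgeR called 81, of which 77 were shared.

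Lbp encodes the lipopolysaccharide-binding protein, a secreted protein of the acute-phase response (ENSMUSG00000016024, GRCm38 chromosome 2, 158306493 to 158332852). Its normalised reads with lithium were 108, 114.5, 149, 120 and 184 in HT and 147, 91.4, 113, 114 and 113 in WT. With vehicle they were 81.7, 102, 93.2, 86.0 and 83.2 in HT and 71.7, 76.3, 68.6 and 68.8 in WT. Lithium libraries were higher, and within each genotype the groups did not overlap. The log2 fold change was 0.62 (SE 0.10, adjusted p = 0.049), 0.57 in HT and 0.68 in WT.

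Stra6 encodes the membrane receptor through which cells take up retinol (ENSMUSG00000032327, chromosome 9, 58063788 to 58153996). In HT it had 224, 234, 170, 294 and 251 normalised reads with lithium and 174, 199, 136, 128 and 112 with vehicle. WT libraries had 164, 180, 168, 157 and 164 with lithium and 109, 127, 99.3 and 92.0 with vehicle. The WT groups were separate, and in HT only lithium library 3 fell within the vehicle range. The log2 fold change was 0.65 (SE 0.11, adjusted p = 0.049), with 0.65 in HT and 0.64 in WT.

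Rpl17, a gene of the large ribosomal subunit (ENSMUSG00000062328), lies on chromosome 18. Lithium libraries had 3044, 2977, 2728, 3356 and 3522 normalised reads in HT and 3274, 3474, 3310, 3516 and 3022 in WT. Vehicle libraries had 3961, 3876, 4011, 3845 and 3705 in HT and 3778, 3909, 3656 and 3810 in WT. Every lithium library lay below every vehicle library. Its log2 fold change was -0.25 (SE 0.044, adjusted p = 0.049). It was -0.30 (SE 0.035, adjusted p = 0.0013) without HT lithium males 4 and 5, which were the highest of the HT lithium group.

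Rpl22l1 encodes a relative of the ribosomal protein Rpl22 (ENSMUSG00000039221, chromosome 3, 28805436 to 28807424). With lithium it had 481, 569, 580.1, 519 and 509.6 normalised reads in HT and 424, 595, 497, 469.8 and 429.6 in WT. With vehicle the HT libraries had 634, 743, 646, 618 and 689, and the WT libraries 605, 638, 583 and 713. Lithium was lower, with WT lithium library 2 overlapping the vehicle range. The log2 fold change, -0.36 with an SE of 0.064, had an adjusted p of 0.049.

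Arl4d encodes a small GTPase of the ARF-like family (ENSMUSG00000034936, chromosome 11, 101665541 to 101667832). Its lithium libraries had 371, 499, 564, 518 and 381 normalised reads in HT and 372, 427, 356, 494 and 357 in WT. The vehicle libraries had 559, 536, 580, 627 and 721 in HT and 569, 613, 576 and 672 in WT. WT groups were separate, and HT lithium library 3 overlapped HT vehicle. Its log2 fold change was -0.50 with an SE of 0.086 (adjusted p = 0.049).

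**Figure D2:**
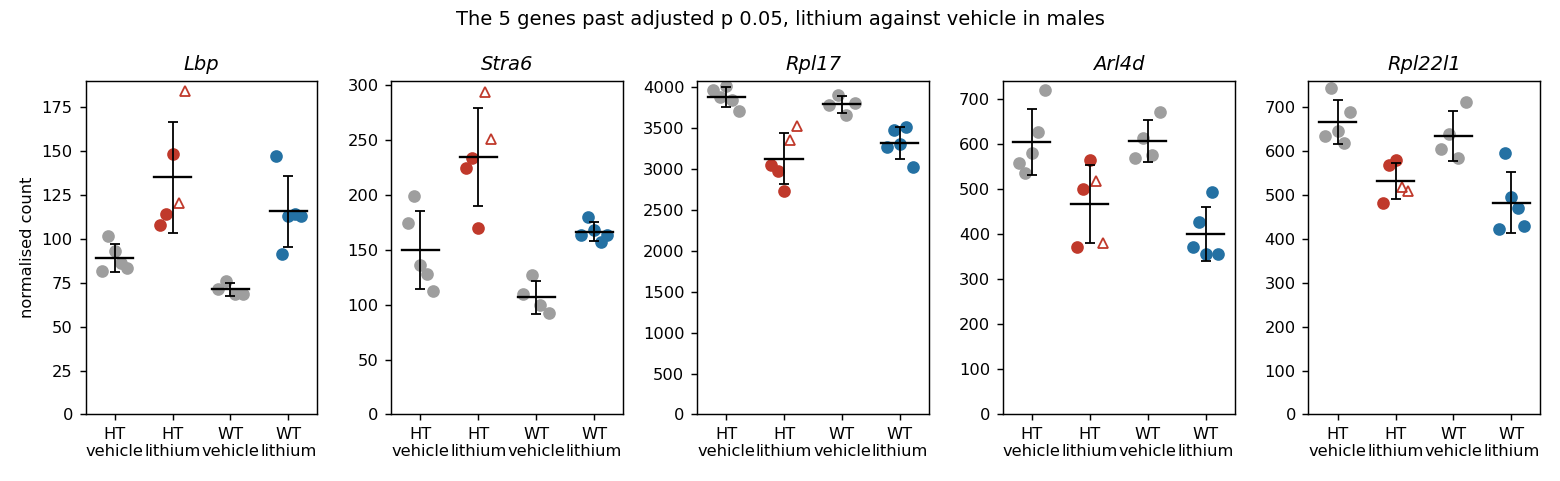
Normalised count (vertical axes, linear from 0) of the 5 genes past an adjusted p of 0.05 in each male library, by genotype and treatment; points are libraries, the open triangles are HT lithium males 4 and 5, the horizontal lines are group means and the vertical bars are SD. Lithium groups sit above vehicle for Lbp and Stra6 and below it for Rpl17, Arl4d and Rpl22l1.

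The count of 5 rested on single libraries. Leaving out 1 of the 19 gave 0 genes in 12 cases: without HT lithium male 2 or 4, HT vehicle male 1, 3, 4 or 5, WT lithium male 1, 3, 4 or 5, or WT vehicle male 3 or 4. It gave 1 without HT lithium male 5 or HT vehicle male 2, 2 without WT lithium male 2, 10 without HT lithium male 1, 13 without HT lithium male 3 and 18 without WT vehicle male 1. Without HT lithium males 4 and 5, taking out 1 more library moved the count of 85 to between 5 and 228. It was 5 or 6 without WT vehicle male 3 or 4, 10 to 13 without WT lithium male 3, 5 or 1, 14 without HT lithium male 3, and 228 without WT vehicle male 1. It was 23 to 29 without HT vehicle male 1, 2, 3 or 4, 39 without WT vehicle male 2, 42 without HT vehicle male 5, 45 without HT lithium male 2 and 55 without HT lithium male 1.

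Ribosomal protein genes lay lower with lithium as a list. Of the 79 cytosolic ribosomal protein genes, all of which were tested, Rpl17 fell and the other 78 did not pass. The median log2 fold change was -0.12, against 0.00 over all genes tested. At an unadjusted p under 0.05, 30 of the 79 were lower and 0 were higher, against 4.41% lower among all genes. In both genotypes 60 of the 79 had a negative log2 fold change, and 2 had a positive one. Of all 16632 genes tested, 4505 (27.1%) were negative in both genotypes and 4191 were positive in both.

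Rpl10a, of the large subunit, had 1525 to 1874 normalised reads with lithium and 1825 to 2272 with vehicle; the log2 fold change was -0.22 (SE 0.043, adjusted p = 0.074). Rps27a, whose product is a fusion of ubiquitin with a protein of the small subunit, had 2542 to 3128 and 3081 to 3693, with -0.21 (SE 0.042, adjusted p = 0.074). Rpl31, whose promoter is printed above, had 2259 to 3015 and 2792 to 3249, with -0.20 (SE 0.044, adjusted p = 0.087). The ranges of all 3 genes overlapped between treatments. Ribosomal protein genes have many processed pseudogenes, so how reads were shared between copies may affect single members.

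HT lithium males 4 and 5 were the exceptions within this list. The median of the list's members, in log2 units relative to each gene's mean over the 19 libraries, was 0.149 and 0.193 in them. It was -0.107, -0.057 and -0.177 in the other HT lithium libraries. WT lithium libraries had -0.088, 0.035, -0.191, -0.007 and -0.21. HT vehicle libraries had 0.144, 0.118, 0.132, 0.01 and 0.075, and WT vehicle libraries -0.028, 0.047, 0.039 and 0.031. Lithium libraries other than these 2 were lower within HT without overlap, and overlapped vehicle within WT.

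Without those 2 libraries, 20 of the 79 ribosomal protein genes fell and 0 rose, where 0.373% of all genes fell. The median was -0.17, and 57 of 79 were lower at an unadjusted p under 0.05, where 6.75% of all genes were. Rpl38 of the large subunit shows the difference that the 2 libraries made. It had 1139, 1263, 1340, 2144 and 1976 normalised reads in HT lithium libraries 1 to 5 and 1503 to 1694 in HT vehicle, and 1206 to 1398 in WT lithium and 1389 to 1631 in WT vehicle. Its log2 fold change was -0.15 (SE 0.095, adjusted p = 0.73) with them and -0.30 (SE 0.047, adjusted p = 0.015) without them. Rpl41 had -0.27 (adjusted p = 0.012) without them; this gene and Rpl38 were chosen after their values were seen. Each further library left out kept 51 to 60 of the 79 lower at an unadjusted p under 0.05, while the number that fell ranged from 3 (without WT vehicle male 3) to 28 (without WT lithium male 2 or WT vehicle male 1). It was 12 without HT lithium male 1 or WT vehicle male 2, 5 without HT lithium male 3, 4 without WT vehicle male 4, 10 or 11 without HT vehicle male 1, 2 or 3, 13 without HT vehicle male 5 and 6 to 8 without WT lithium male 1, 3 or 5. With levels also adjusted for the GC content and length of transcripts, 9 of the 79 fell and 52 were lower at an unadjusted p under 0.05. Of all genes, 0.0902% passed in that fit, 0.0722% fell, and 4.74% were lower at an unadjusted p under 0.05.

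The 75 nuclear-encoded genes of oxidative phosphorylation lay slightly lower, with a median of -0.05, and 0 passed in limma or edgeR. At an unadjusted p under 0.05, 17 were lower (22.7%) and 0 higher, against 4.41% and 4.14% of all genes. That count of 17 was 8 without WT lithium male 3, 10 without WT vehicle male 4, 11 when HT vehicle male 5 or WT lithium male 5 was left out, and between 12 and 22 without any other library. Ndufa4, a subunit associated with cytochrome oxidase, had 3858 to 4516 normalised reads with lithium and 4354 to 5034 with vehicle (log2 fold change -0.17, SE 0.037, adjusted p = 0.088). Without HT lithium males 4 and 5, 4 of the 75 fell, and after the GC and length correction of that set 0 did by limma, with 13 lower and 1 higher at an unadjusted p under 0.05 (4.74% and 6.39% of all genes). Among the 4 was Ndufc1, a subunit of complex I, with -0.27 (SE 0.058, adjusted p = 0.046). With 1 further library out the 4 became 13 without WT vehicle male 1, 6 without WT lithium male 2, 5 without WT lithium male 4, 3 without HT lithium male 2 or HT vehicle male 4, and 1 or 2 without any other.

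Immediate early and activity-induced genes, which neurons switch on when they fire, had a median log2 fold change of -0.23 over 30 genes tested. None passed over both genotypes by limma or edgeR. At an unadjusted p under 0.05, 14 were lower (46.7%) and 1 higher, against 4.41% and 4.14% of all genes. The 14 became 12 to 16 with 1 library left out. Their median log2 fold change was -0.04 in HT and -0.32 in WT. Without HT lithium males 4 and 5 it was -0.21 over both genotypes and 0.03 in HT. The level of the list in each library, as the median over members, was -0.191, 0.088, -0.241, -0.266 and -0.354 in WT lithium libraries. It was 0.355, 0.17, 0.183 and 0.142 in WT vehicle, with no overlap. In HT it ran from -0.286 to 0.353 with lithium and from -0.171 to 0.309 with vehicle, and the groups overlapped throughout.

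Nr4a1, a nuclear receptor induced by firing, had 1665, 2263, 1425, 1243 and 1226 normalised reads in WT lithium libraries and 3692, 3006, 3605 and 3655 in WT vehicle. HT libraries had 1096 to 3145 with lithium and 1777 to 2934 with vehicle. The WT groups were separate and the HT groups overlapped. Over both genotypes the log2 fold change was -0.66 (SE 0.19, adjusted p = 0.28), with -1.19 in WT and -0.13 in HT. For Arc, whose product acts in the postsynaptic density, the log2 fold change was -1.08 (SE 0.31, adjusted p = 0.31). Gadd45b, a stress-induced gene, stood at -0.39 (SE 0.090, adjusted p = 0.12). Arc ranged from 1621 to 4590 in WT lithium, 4897 to 8181 in WT vehicle, 1270 to 7010 in HT lithium and 3170 to 7149 in HT vehicle. Fos, chosen for its printed promoter, averaged 628 ± 114 (SD, n = 5) in WT lithium and 1209 ± 178 (SD, n = 4) in WT vehicle, and 839 ± 340 (SD, n = 5) and 963 ± 306 (SD, n = 5) in HT. Ccn1, a secreted matrix protein of the same list, was chosen for the same reason and stood at -0.63 (SE 0.22, adjusted p = 0.40).

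Within WT males 2 genes passed (0.012% of genes tested; 0.00601% rose and 0.00601% fell), Cd163 and Ier2. Cd163, the haemoglobin scavenger receptor of macrophages around brain vessels, had 108, 100.5, 97.3, 127 and 119.8 normalised reads with lithium and 56.4, 63.4, 32.5 and 27.5 with vehicle. It rose by 1.36 (SE 0.22, adjusted p = 0.048), and in HT it had 76.8 to 123 with lithium and 68.7 to 118 with vehicle. Ier2, an immediate early transcriptional regulator, had 121, 169, 139.8, 128 and 102 with lithium and 269, 277, 324 and 306 with vehicle in WT. Its log2 fold change in WT was -1.17 with an SE of 0.19 (adjusted p = 0.048). Neither WT gene overlapped between treatments, and in HT Ier2 had 160 to 324 with lithium and 135 to 239 with vehicle, a log2 fold change of 0.27 (adjusted p = 0.72).

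In the test of lithium against vehicle in WT males by edgeR, 0 genes passed and 1015 had an unadjusted p under 0.05, while DESeq2 called 21. By limma 1005 had an unadjusted p under 0.05 (6.04%). Leaving out 1 library gave 0 in 12 of 19 cases, without HT lithium male 2, HT vehicle male 2, 3, 4 or 5, WT lithium male 1, 3, 4 or 5, or WT vehicle male 1, 3 or 4. It gave 1 without HT lithium male 4, 3 without HT lithium male 3, 4 without WT lithium male 2 and 5 without WT vehicle male 2.

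In the test of lithium against vehicle in HT males 0 genes passed in limma (1340 at an unadjusted p under 0.05, or 8.06% of genes) and 0 in edgeR (1422), while DESeq2 called 46. The limma count was 1 without HT lithium male 1, 4 without HT lithium male 3, 3 without HT lithium male 5 and 14 (0.0842%) without HT lithium males 4 and 5. The 2 genes with the smallest p in each direction were Cd248 and Eln, higher, and Dyrk3 and Rpl17, lower. Cd248, a surface protein of pericytes and fibroblasts, had 184, 203, 145.5, 244 and 226 normalised reads with lithium and 118 to 130 with vehicle, without overlap (log2 fold change 0.65, SE 0.12, adjusted p = 0.21). Eln, which encodes elastin, had 1050, 1870, 1127, 1908 and 1819 with lithium and 884 to 1001 with vehicle, also without overlap (0.70, SE 0.14, adjusted p = 0.21). Dyrk3, a protein kinase gene, had 227 to 341 with lithium and 355 to 473 with vehicle (-0.59, SE 0.11, adjusted p = 0.21).

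The difference of the lithium effect between HT and WT males was tested directly. No gene passed in limma (850 at an unadjusted p under 0.05, or 5.11%) or edgeR (884), while DESeq2 called 6. Ier2 had the smallest p, with an effect 1.43 higher on the log2 scale in HT than in WT (adjusted p = 0.41). Boc, a co-receptor of hedgehog signalling, followed with 0.51 (adjusted p = 0.42). Rnf25, a ubiquitin ligase gene, had -0.35 and Acap2, a regulator of endosomal traffic, -0.42 (each adjusted p = 0.56). The count was 2 without HT lithium male 5 and 0 with any other library left out. Across all 16632 genes the lithium log2 fold changes in HT and WT had a Pearson r of 0.094 and a Spearman rho of 0.075, and without HT lithium males 4 and 5 the values were 0.072 and 0.084. The 2 contrasts share no library, and genes are not independent replicates.

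Of 34 genes of inositol phosphate and inositol synthesis, 0 passed in limma or edgeR, with a median of 0.01. At an unadjusted p under 0.05, 1 was higher (2.94%) and 0 lower, against 4.14% and 4.41% of all genes. Pikfyve, a phosphoinositide kinase, had 1412 to 1796 normalised reads with lithium and 1402 to 1587 with vehicle (log2 fold change 0.10, SE 0.043, adjusted p = 0.54). Isyna1, the synthase that makes inositol from glucose, had 0.12 (SE 0.059, adjusted p = 0.62). The kinase gene Itpkc had -0.14 and Cds1, which makes CDP-diacylglycerol for phosphoinositides, -0.08.

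Of 32 Wnt and beta-catenin targets and regulators, 0 passed in limma or edgeR, and the median was 0.08. At an unadjusted p under 0.05, 2 were higher and 1 lower, against 4.14% and 4.41% of all genes. Without HT lithium males 4 and 5 the median of the list was 0.02, and in HT it went from 0.08 to 0.002. Ctnnb1, the beta-catenin gene itself, had 15094 to 18917 normalised reads with lithium and 17225 to 20356 with vehicle. Its log2 fold change was -0.15 (SE 0.040, adjusted p = 0.23), the same in HT and WT at -0.15, and -0.18 (SE 0.037, adjusted p = 0.044) without HT lithium males 4 and 5. With the GC and length correction of that set Ctnnb1 did not pass (-0.17, adjusted p = 0.0751). Among targets, Sp5 had 0.77 (SE 0.25, adjusted p = 0.34) at 5.52 to 18.3 normalised reads with lithium and 3.24 to 16.45 with vehicle. The Wnt receptor gene Fzd7 had 0.41 (SE 0.13, adjusted p = 0.31) and Notum, a secreted enzyme that inactivates Wnt proteins, 0.28 (SE 0.14, adjusted p = 0.60). In HT lithium males 4 and 5 Fzd7 stood at 286 and 409, against 124.8 to 221 in the other 17 libraries, and without them its log2 fold change was 0.24.

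Cholesterol genes had a negative median in both genotypes. Of 27 genes of cholesterol synthesis and uptake, 0 passed in limma or edgeR. At an unadjusted p under 0.05, 7 were lower (25.9%) and 0 higher, against 4.41% and 4.14% of all genes. In both genotypes 21 of the 27 had a negative log2 fold change, against 27.1% of all genes. The 7 became 4 without WT vehicle male 3 or 4, 11 without WT lithium male 3, 13 without WT vehicle male 1 and 5 to 10 without any other library. The median was -0.09, and -0.06 without HT lithium males 4 and 5, with 13 of 27 negative in both genotypes (27.7% of all genes). Insig1, which restrains the sterol sensor, had a log2 fold change over both genotypes of -0.18 (SE 0.050, adjusted p = 0.24), and the mevalonate pathway enzymes Pmvk and Idi1 had -0.16 and -0.18.

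Genes of endoplasmic reticulum stress and chaperones lay slightly higher. Of 24 tested, 0 passed in limma or edgeR, and the median was 0.04. At an unadjusted p under 0.05, 4 were higher (16.7%) and 0 lower, against 4.14% and 4.41% of all genes. The 4 became 9 without HT lithium male 5, 7 without WT vehicle male 2 and 2 without HT lithium male 1 or 2, HT vehicle male 1 or 3, WT lithium male 2 or WT vehicle male 3 or 4. Without HT lithium males 4 and 5 the median was 0.09, 12 were higher at an unadjusted p under 0.05 (6.28% of all genes) and 0 lower, and Dnajb11 rose by 0.17 (SE 0.035, adjusted p = 0.044). With the GC and length correction of that set it did not pass (0.16, adjusted p = 0.0809). With 1 further library out a member of the list passed without HT lithium male 1, HT vehicle male 5, WT lithium male 2 or 4, or WT vehicle male 1 or 2, and none did in limma in the other cases. Dnajb11, a co-chaperone of the endoplasmic reticulum, had 1463 to 1848 normalised reads with lithium and 1477 to 1617 with vehicle. HT lithium libraries 4 and 5, at 1583 and 1463, and WT lithium library 5, at 1542, were the lowest of the lithium group. Pdia4, a disulphide isomerase, had 0.18 (SE 0.060, adjusted p = 0.37), the calcium-binding chaperone gene Calr 0.11 and the chaperone gene Hyou1 0.08.

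Among 23 glucocorticoid response genes 0 passed in limma or edgeR, with a median of -0.01 (-0.13 in HT and 0.20 in WT). At an unadjusted p under 0.05, 5 were higher and 5 lower, against 4.14% and 4.41% of all genes. Without HT lithium male 5 alone there were 3 higher and 7 lower (4.03% and 4.71% of all genes), with a median of -0.10. Without HT lithium males 4 and 5 there were 4 and 7 (6.28% and 6.75% of all genes), with a median of -0.10, and -0.28 in HT. Ddit4, an inhibitor of the mTOR pathway, had 884, 976, 1039, 1329 and 1587 normalised reads in HT lithium libraries and 1577 to 1785 in HT vehicle. In WT it had 788 to 1311 and 1088 to 1465. Its log2 fold change was -0.44 (SE 0.10, adjusted p = 0.12), and -0.56 (SE 0.080, adjusted p = 0.01) without HT lithium males 4 and 5. Depp1, a target of FOXO and steroid signalling that lies outside the lists and was chosen after its values were seen, had 8.54 to 47.8 with lithium and 33.4 to 114 with vehicle (log2 fold change -1.36, SE 0.27, adjusted p = 0.074). The transcription factor gene Zbtb16 had 0.51 and Hif3a 0.67, against -0.51 for Dusp1, a phosphatase that is also an immediate early gene.

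Clock genes did not pass in limma or edgeR. Of 21, 2 were higher and 2 lower at an unadjusted p under 0.05, against 4.14% and 4.41% of all genes. They were Per2 (log2 fold change 0.27, SE 0.090, adjusted p = 0.37) and Cry1 (0.16), and Per1 (-0.15) and Ciart (-0.19), all repressors in the circadian loop. Per2 had 1248 to 1949 normalised reads with lithium and 821 to 1419 with vehicle.

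Ion transport and synaptic lists stayed close to 0. Among 32 genes of sodium, potassium, magnesium and lithium transport, 2 were higher and 1 lower at an unadjusted p under 0.05 and the median was 0.04. The potassium and chloride cotransporter gene Slc12a7 had a log2 fold change of 0.30 and the magnesium transporter gene Slc41a1 0.09. Of 50 glutamate receptor and postsynaptic genes 2 were higher and 0 lower, and of 42 voltage-gated channel genes 1 and 0. The 43 synaptic vesicle genes had 0 higher and 5 lower (11.6%), against 4.14% and 4.41% of all genes. Among them Rims1, an organizer of the release site, stood at -0.31 (SE 0.095, adjusted p = 0.31). The 30 BAF complex genes had 0 in either direction. No member of these 5 lists passed in limma or edgeR, with all libraries or without HT lithium males 4 and 5 in limma.

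**Figure D3:**
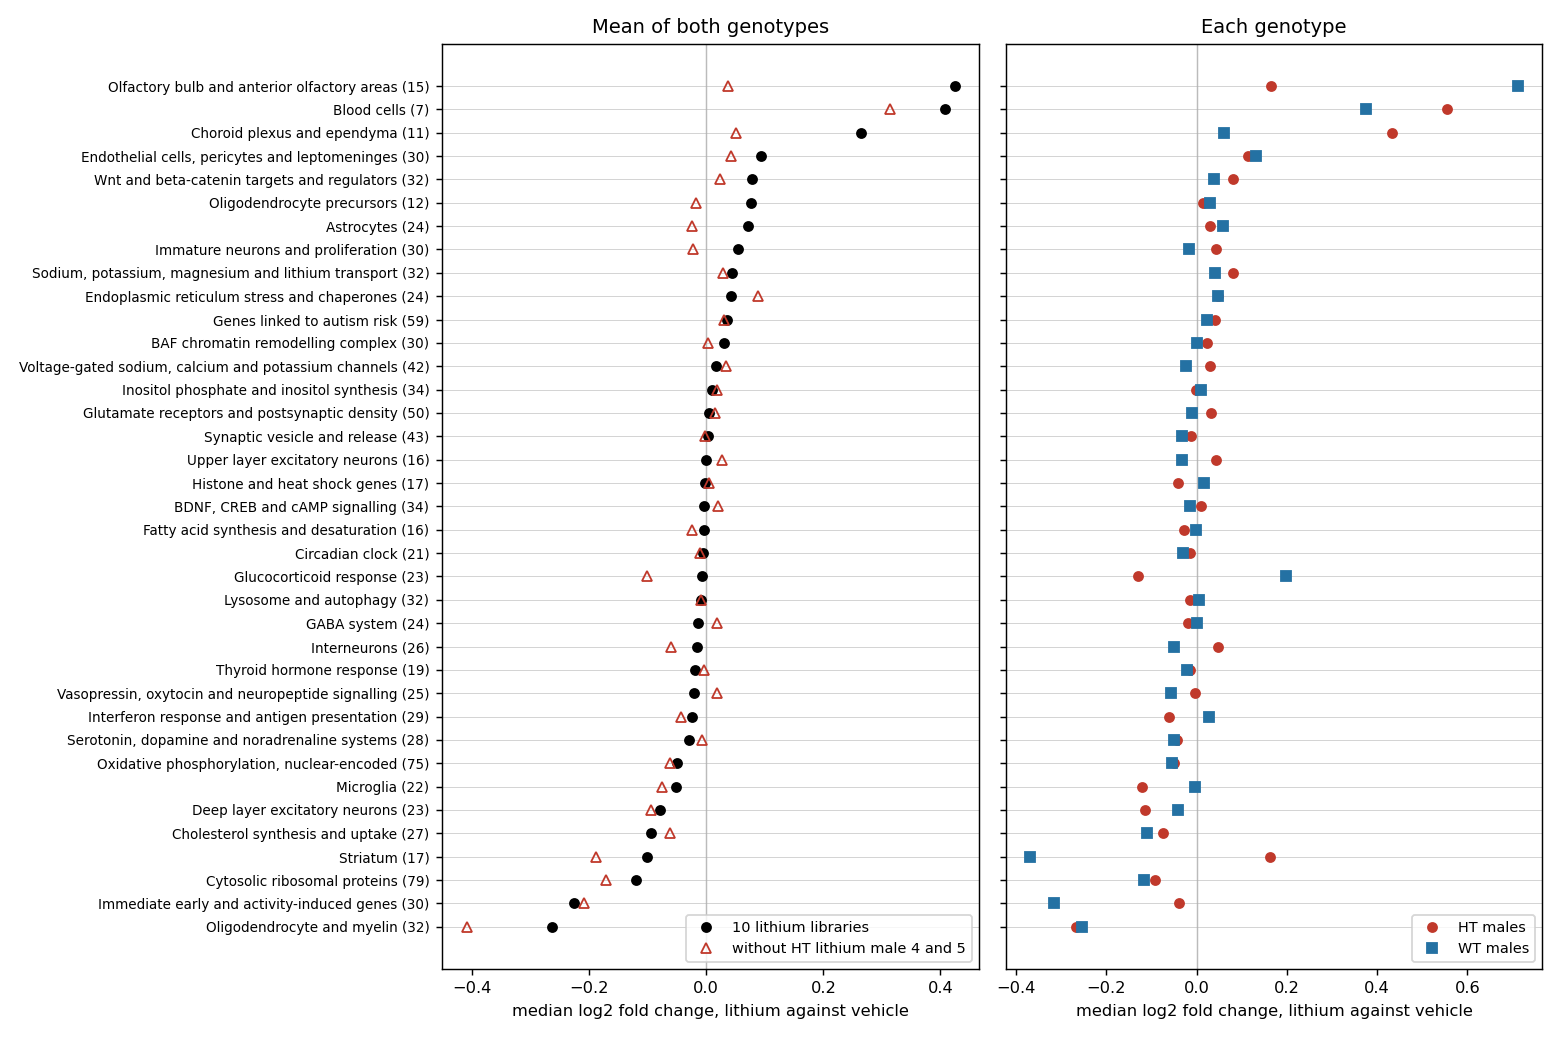
Median log2 fold change of lithium against vehicle (horizontal axes) in each gene list, with the number of genes tested in brackets, for the mean of both genotypes (left; filled circles with all 10 lithium libraries, open triangles without HT lithium males 4 and 5) and for each genotype (right). The ribosomal protein list lies at -0.12 and -0.17 on the left, and the immediate early list at -0.04 in HT and -0.32 in WT on the right.

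Markers of other cell types were compared in the same way. In bulk tissue, fewer cells of a type and less RNA per cell cannot be told apart. Of 30 markers of endothelial cells, pericytes and leptomeninges, 0 passed in limma or edgeR. At an unadjusted p under 0.05, 8 were higher and 2 lower, against 4.14% and 4.41% of all genes. In both genotypes 16 of the 30 were higher, as were 4191 of all 16632 genes tested. Without HT lithium males 4 and 5, 5 of the markers were higher and 3 lower (6.28% and 6.75% of all genes), and 10 were higher in both genotypes (28.1% of all genes). The median of the markers then went from 0.09 to 0.04, and in HT from 0.11 to -0.01. Their summed level was 59390 to 80076 normalised reads with lithium (median 64120) and 50298 to 64634 with vehicle (median 57886), the highest in HT lithium male 4. Anpep, an aminopeptidase of pericytes, had 196 to 322 with lithium and 163 to 228 with vehicle (log2 fold change 0.39, SE 0.088, adjusted p = 0.11). Acta2, the smooth muscle actin, had 0.37 and Igf2, a growth factor made in leptomeninges and choroid plexus, 0.34. Stra6, Eln and Cd248 are known from vessel or meningeal cells, and the part of this list in their values was not tested.

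Blood cell markers had a summed level of 6307 to 20706 with lithium (median 16439) and 8133 to 18683 with vehicle (median 8592), over the 7 of 10 that the table holds. The 13 choroid plexus and ependyma markers in the table summed to 6525 to 19423 with lithium and 5729 to 7115 with vehicle, the highest in HT lithium male 5. Outside that library most of the sum was Enpp2, which is also in the oligodendrocyte and myelin list. Enpp2 alone had 5841 to 8915 with lithium and 5129 to 6625 with vehicle, so the sum says little about choroid tissue. The defining choroid marker Folr1 was at 0 in HT vehicle males 1 and 5 and at most 38.1. Olfactory markers summed to 10407 to 32663 with lithium and 9702 to 38977 with vehicle, and striatal markers to 17369 to 39554 and 16482 to 27675.

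The 32 oligodendrocyte and myelin genes had the lowest median of all lists, -0.26, and 26 were negative in both genotypes, against 27.1% of all genes. At an unadjusted p under 0.05, 1 was higher and 1 lower (4.14% and 4.41% of all genes), with 0 past the threshold in limma or edgeR. Without HT lithium male 5 alone 6 were lower (4.71% of all genes) and the median was -0.39. Without HT lithium males 4 and 5, 6 were lower (6.75% of all genes) and the median was -0.41. Their level in each library, as the median over members, ran from -1.323 to 0.528 with lithium and from -0.353 to 0.717 with vehicle, so the treatments overlapped. The lowest value was that of HT lithium male 3, and the 2 highest those of WT vehicle males 3 and 4. Qdpr, an enzyme of tetrahydrobiopterin recycling that myelinating cells express, had 1307 to 1767 normalised reads with lithium and 1505 to 2074 with vehicle (log2 fold change -0.19, SE 0.063, adjusted p = 0.36).

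The male result was then set against lithium in females (10 lithium and 9 vehicle libraries). One library labelled HT lithium female, replicate 4, had 3.74 normalised reads of Xist, against at least 16830 in the other female libraries. Its level of the Y-linked gene Ddx3y was 2.80, against 0 to 2.82 in the other female libraries and 963 to 1687 in the male ones. It thus lacked both signals, and it was kept as labelled. Females had 7983 genes past the threshold (48% of those tested), 23.9% higher and 24.1% lower, and 3681 (22.1%) after the GC and length correction. The test of the difference called 4794 genes (28.8%), 2254 with a higher (13.6%) and 2540 with a lower (15.3%) lithium effect in males than in females. After the GC and length correction 848 passed (5.1%), 587 of them also called before it with the same sign, and without HT lithium males 4 and 5 the count was 6644 (39.9%). The GC slopes of the lithium libraries differed between the sexes, as given above, and their part in this count beyond that correction was not tested.

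Genes with the smallest p for this difference had male effects near 0. Nlgn2, an adhesion protein of inhibitory synapses, had a log2 fold change of 0.04 in males and 0.40 in females, a difference of -0.37 (SE 0.042, adjusted p = 1.5e-06). Cep170b, a microtubule-associated protein, had 0.02 and 0.50, the hexokinase gene Hk1 0.03 and 0.40, and Nol6, of ribosome assembly, -0.01 and 0.36. In the other direction Zfp386 had 0.08 in males and -0.46 in females, Zfp760 0.09 and -0.42, both zinc finger genes, Eri2, an exonuclease gene, 0.08 and -0.41, and the splicing factor gene Srsf10 0.10 and -0.41. In HT lithium males 4 and 5 Nlgn2, Cep170b and Nol6 were above all other lithium and vehicle males, with Nlgn2 at 9403 and 9184 normalised reads. Srsf10 and Zfp386 were the lowest of the lithium males there. Hk1, Zfp760 and Eri2 did not stand apart there. These fold changes are without the GC and length correction. The difference was also fitted with that correction for every gene, and the corrected values of these genes are not given here. The part of the GC trend in each gene was not otherwise tested.

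The 5 genes called in males had the same direction in females, where 48% of all genes passed. Of the 7983 genes called in females, 2947 had the opposite direction in males. The female values that follow are without the GC and length correction. Rpl17 had -0.19 (adjusted p = 0.0015), Rpl22l1 -0.30 (adjusted p = 7.2e-05), Arl4d -0.28 (adjusted p = 0.0059), Stra6 0.39 (adjusted p = 0.0026) and Lbp 0.22 (adjusted p = 0.11). For none of the 5 did the male and female effects differ past the threshold in limma (adjusted p between 0.056 for Lbp and 0.59 for Rpl22l1). Female vehicle and lithium libraries are not shared with males, but whether both sexes came from the same treated litters is not given. Over the 79 ribosomal protein genes the female median was 0.04, with 27 higher and 20 lower past the threshold (23.9% and 24.1% of all genes). The male effect was lower than the female one for 28 and higher for 5 (15.3% and 13.6% of all genes), 33 in all. After the GC and length correction it differed for 14 of the 79, against 5.1% of all genes. The immediate early list had a female median of -0.09, with 6 higher and 3 lower, shares of the 30 genes below those over all genes (23.9% and 24.1%).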

How the data were processed

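Poly(A) RNA was sequenced from prefrontal cortex with a stranded kit, per the labels. The deposited values are a signal, the normalised read count per gene: per the submitters' processing notes the authors used Salmon 0.11.2 on GRCm38 and DESeq2 1.19.11 in R 3.6.0. Multiplied by 1 factor per library, 100% of values were within 0.001 of a whole read. The strand setting of counting is not given in the sources used here.

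The test was limma 3.58.1 (R 4.3.3, trended and robust) on log2(value + 1) with 4 group means, over 16632 genes with Benjamini-Hochberg adjustment and a threshold of 0.05. A fold change on this scale understates that of low genes. Alternatives were edgeR 4.0.16 and DESeq2 1.42.0 on recovered reads, quantile normalisation, library weights, a pseudocount of 5, no filter, other models, each library left out, and a spline correction for GC content and length, which were known for 99.95% of genes. Gene symbols and positions came from the GENCODE annotation of GRCm38. The rule for naming took, in the comparison over both genotypes, the genes with the smallest p or largest change past the threshold, in the other comparisons up to 4 per direction past it (2 where none passed), and in each described list up to 4 members with the smallest p. Genes outside it are marked, and a few genes are not reported here. The members and lists were chosen with earlier results of these data known. On simulated data with 200 changed among 16632 genes, the comparison over both genotypes recovered 57.8%, 70.8% and 91.5% of genes changed 1.25-fold, 1.5-fold and 2-fold, with 7 unchanged genes called. Genes were drawn independently there, with no GC trend and no library set apart, so these shares may not hold for the real libraries.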

Additional observations from a re-analysis of the deposited data

Results flagged for a closer look

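The 7 genes called over both genotypes or in WT, Arid1b, the choroid plexus marker Ttr and the GC slope were each checked in the 4 male groups for a library far from the rest, 40 checks in all, of which chance picks about 1 in 20. Only Ttr had libraries that this check flagged. The check measures the gap of a single library at either end of its group. It cannot flag 2 libraries that lie together, as HT lithium males 4 and 5 do in GC slope. The level of Ttr was 9013 in HT lithium male 5, 12.8 in HT vehicle male 3 and 68.3 in WT lithium male 2, each far from the other libraries of the group.

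The lithium effect differed between males and females in 4794 genes, and in 848 after the GC and length correction. Before that correction, on the log2 scale, the male effect minus the female effect was 0.55 for Zfp386, 0.51 for Zfp760, 0.49 for Eri2 and 0.51 for Srsf10. It was -0.37 for Nlgn2, -0.38 for Hk1, -0.38 for Nol6 and -0.48 for Cep170b.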

How the results depend on the processing

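For lithium against vehicle in males, mean of both genotypes, the count of 5 was 0 under quantile normalisation and in edgeR with either scaling, 91 with library weights, 18 in a fit of all 58 libraries, 105 in DESeq2 and 2 after the GC and length correction. Without HT lithium males 4 and 5 it was 85, 81 in edgeR and 15 after the correction, and 228 at most with 1 further library out. With 1 library left out it ran from 0 to 18, in HT from 0 to 4, in WT from 0 to 5, for the genotype difference from 0 to 2 and for the sex difference from 4176 to 5622. In HT the count of 0 was 1 with weights, 2 with all 58 libraries, 46 in DESeq2, and without males 4 and 5 it was 14, 14 in edgeR and 4 after the correction. In WT the count of 2 was 0 under quantile normalisation, edgeR and the correction, 303 with weights, 14 with all 58 libraries and 21 in DESeq2. The genotype difference gave 1 gene with weights, 6 in DESeq2 and 1 in edgeR without males 4 and 5. The difference of the lithium effect between males and females gave 7291 with weights, 848 after the correction and 1737 with both changes. Among list members 1 passed, against 0 under quantile normalisation, edgeR and the correction, 28 without males 4 and 5 and 10 with both.

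Over 9 pairs of libraries with the same number in their titles, correlations of their deviations ran from -0.276 to 0.39, and 2 were the best match. WT vehicle males carry other numbers in their library names. By library name WT lithium males 2, 4 and 5 matched WT vehicle males 1, 3 and 4, at 0.211, 0.096 and 0.087. Each was the best match of its lithium library. WT lithium male 3 matched WT vehicle male 2 at 0.085, which was not the best. Whether libraries were paired thus stays undecided. With a replicate block 0 genes passed over both genotypes, with either numbering, and 0 in WT, and the difference of the lithium effect between males and females had 4902. Of the list members examined in lithium against vehicle in males, mean of both genotypes, 7 changed sign without passing in either fit, and 6 are given here. Without males 4 and 5 in edgeR the values were -0.0015 for Fasn, -0.002 for Cspg4, -0.54 for Tbx21, -0.0238 for Kctd12, -0.16 for Eomes and -0.21 for Calb2. Fasn had -0.0074 with weights, Kctd12 -0.0386 without males 4 and 5 after the correction, and Tbx21 -0.0318 and -0.0219 in edgeR with TMM and the deposited scaling and -0.0407 in DESeq2. The male effects of Nlgn2 and Cep170b, near 0, were -0.01 and -0.02 without males 4 and 5. With 5 HT lithium and 5 HT vehicle libraries, 63.2% of simulated 1.5-fold changes were recovered, so changes of that size or smaller can be missed.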
